A study of Mus musculus with 12 samples.

Results

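Of the 29737 genes in the count table, 9 are described here. They are the marker genes of the B cell lineage Cd79a, Cd79b, Blnk, Ms4a1, Cd22, Btla, Ebf1, Pax5 and Vpreb3. These were taken by name, with earlier results of these data known. Each is listed once, and 8 of the 9 passed the filter on low counts that left 16761 genes for the tests. Vpreb3 was not tested, since it was at 0 counts in 7 of 12 libraries and reached 3 counts in 3 libraries. The values are counts scaled to library size (CPM) by the TMM method, unless RPKM is named, which divides the reads by gene length as well.

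The samples were neutrophils from the bone marrow of wild-type (WT) mice, and the mice of the study's methods were female C57BL/6 animals of 4 to 6 weeks of age. The cells were separated with EasySep magnetic reagents, described as Ly6G+ in the labels and as purified with an enrichment kit in the methods, and were kept for 24 h in culture medium with fetal bovine serum. The 4 groups of 3 samples received PBS as the control, taurocholic acid (TCA) at 200 μM, glycocholic acid (GCA) at 200 μM or tauro-β-muricholic acid (Tβ-MCA), bile acids that are raised in cholestasis. The Tβ-MCA dose is 10 μM in the labels and 200 μM in the methods, so Tβ-MCA was compared with PBS and not with TCA or GCA. How many mice went into a sample is not given in the sources used here, and the cells are a short culture with bile acid added from outside.

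A B cell recognises antigen through a membrane immunoglobulin that has almost no cytoplasmic tail. CD79A and CD79B form the pair of chains that carries the signal into the cell, where kinases and adaptors such as BLNK pass it on and inhibitory receptors such as CD22 and BTLA dampen it. The identity of the lineage is set in the bone marrow by the transcription factors EBF1 and PAX5, and the receptor is the defining feature of B cells.

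Library totals lay between 32757389 and 41375925 counts. The marker genes of neutrophils summed to between 39861 and 61318 CPM, against between 4.99 and 14.9 CPM for all 9 B cell marker genes, so the markers of the labelled cell type were abundant as a sum and the genes described here were a trace signal beside them. S100a9 and Ngp led that sum, at means of 22948 and 16018 CPM in PBS. Ly6g, the antigen named in the labels, was at 19.1 ± 2.02 CPM in PBS and 9.58 ± 2.90 CPM in Tβ-MCA. No marker gene of the B cell lineage was at 0 in all libraries. In a bulk sample, fewer cells of a type and less RNA per cell cannot be told apart. A count of 3 in a library, taken as the floor, is between 0.0725 and 0.0930 CPM and covers counting error only. Low counts were mostly even numbers, with between 71.4% and 74.5% of the genes at 1 to 9 counts at an even count in each library. Ms4a1 was even in all 12 libraries, and 65 of the 100 member values above 0 were even, and how many independent fragments stand behind these low counts was not tested. In the Tβ-MCA group, replicate 5 stood nearer to PBS than replicates 3 and 4 did in several of the marker lists given below.

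Per length, Cd79a was the highest of the 9 genes, at 2.14 ± 0.534 RPKM (SD over the 12 samples). Cd79b followed at 0.830 ± 0.228 RPKM, and no library held less Cd79a than Cd79b in RPKM. Btla at 0.326 ± 0.141, Pax5 at 0.274 ± 0.158 and Cd22 at 0.199 ± 0.0629 RPKM came next, and these neighbours did not differ beyond their spread. Blnk at 0.0856 ± 0.0272, Ms4a1 at 0.0502 ± 0.0322, Vpreb3 at 0.0417 ± 0.0550 and Ebf1 at 0.0178 ± 0.0138 RPKM were lowest, and their spreads overlapped as well. The signal chains of the receptor thus stood above the transcription factors of the lineage, as a level per length in RPKM.

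In the GRCm38 coordinates of the deposited table, Cd79a lies at chr7:24897381-24902197 on the plus strand and Cd79b at chr11:106311341-106314762 on the minus strand. Blnk lies at chr19:40928927-40994535, Ms4a1 at chr19:11249675-11266241, Cd22 at chr7:30865402-30880342 and Pax5 at chr4:44524757-44710487, all on the minus strand. Btla at chr16:45224315-45252895, Ebf1 at chr11:44617317-45008091 and Vpreb3 at chr10:75943057-75949657 are on the plus strand. All 9 are annotated as protein coding, and their counts are of reads on exons. Pax5 shares 636 exon bases with 5730488B01Rik and Cd22 shares 479 exon bases with Gm29439, each on the other strand, and use of the strand in counting is not given in the sources used here. 5730488B01Rik had 2 counts in TCA replicate 3 and 0 in every other library, whereas Gm29439 had between 4 and 25 counts, so Cd22 is the less certain of these genes.

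RefSeq promoters for GRCm38.p6 were found for 7 of the 9 genes, and the 250 bases before the annotated start were searched on both strands for short motifs. The octamer ATTTGCAT, which POU2F2 and its relatives bind, was in the promoters of Blnk and Vpreb3 and in 1.601% of all 32851 promoters searched. The ETS core AGGAAGT, bound by factors such as PU.1, was in those of Cd79a, Btla, Blnk and Vpreb3, against 7.686% of all. The letters CCCNNGGG, the inner part of the site of EBF1, were in that of Cd22 and in 11.82% of all. The stretches around the octamer and around the ETS matches on the gene's own strand are shown so that the surroundings of a shared motif can be compared between genes. They are written along the gene, with the motif in capitals, and the deposited gene spans of Cd79a, Blnk and Vpreb3 begin before these stretches. That of Btla begins within its stretch and before the motif.
Blnk octamer, chr19:40994333-40994362, minus strand: tactggaagggATTTGCATgcccaataagg
Vpreb3 octamer, chr10:75948244-75948273, plus strand: tcagtgggctgATTTGCATgctctattgtg
Cd79a ETS core, chr7:24897431-24897459, plus strand: cacggctgaacAGGAAGTgaggcggagtt
Btla ETS core, chr16:45224309-45224336, plus strand: tagggaggaagAGGAAGTttgcccttac
Blnk ETS core, chr19:40994406-40994434, minus strand: ttgggacaaacAGGAAGTagtgctcagtc
The matches are letters in a window and not measured binding sites.

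In the comparison of Tβ-MCA with PBS, Cd79a fell to 0.571 of its PBS level, and the other 7 tested genes were also lower on average without passing the test. The median log2 fold change of the 8 tested genes was −0.82, against 0.0041 over all 16761 genes, of which 49.4% were below 0. With only the PBS and Tβ-MCA libraries, Ms4a1 and Ebf1 did not pass the filter on low counts. In edgeR's quasi-likelihood fit, with p-values adjusted over all genes by the Benjamini-Hochberg method, 1 of the 8 passed an adjusted p of 0.05. The background is 7.62% of all genes in either direction and 3.18% with a lower level in Tβ-MCA. The thresholds of the study's methods are an unadjusted p under 0.05 with at least a 2-fold change. At these, 0 of the 8 and 2.95% of all genes passed. In edgeR, 2 of the 8 and 4176 of all 16761 genes had an unadjusted p under 0.05, so the 2 are near the background. All 3 Tβ-MCA libraries lay below all 3 PBS libraries for 2 of the 8, against 12.8% of all genes. These shares rest on 8 genes, so a single gene decides each of them.

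**Figure D1:**
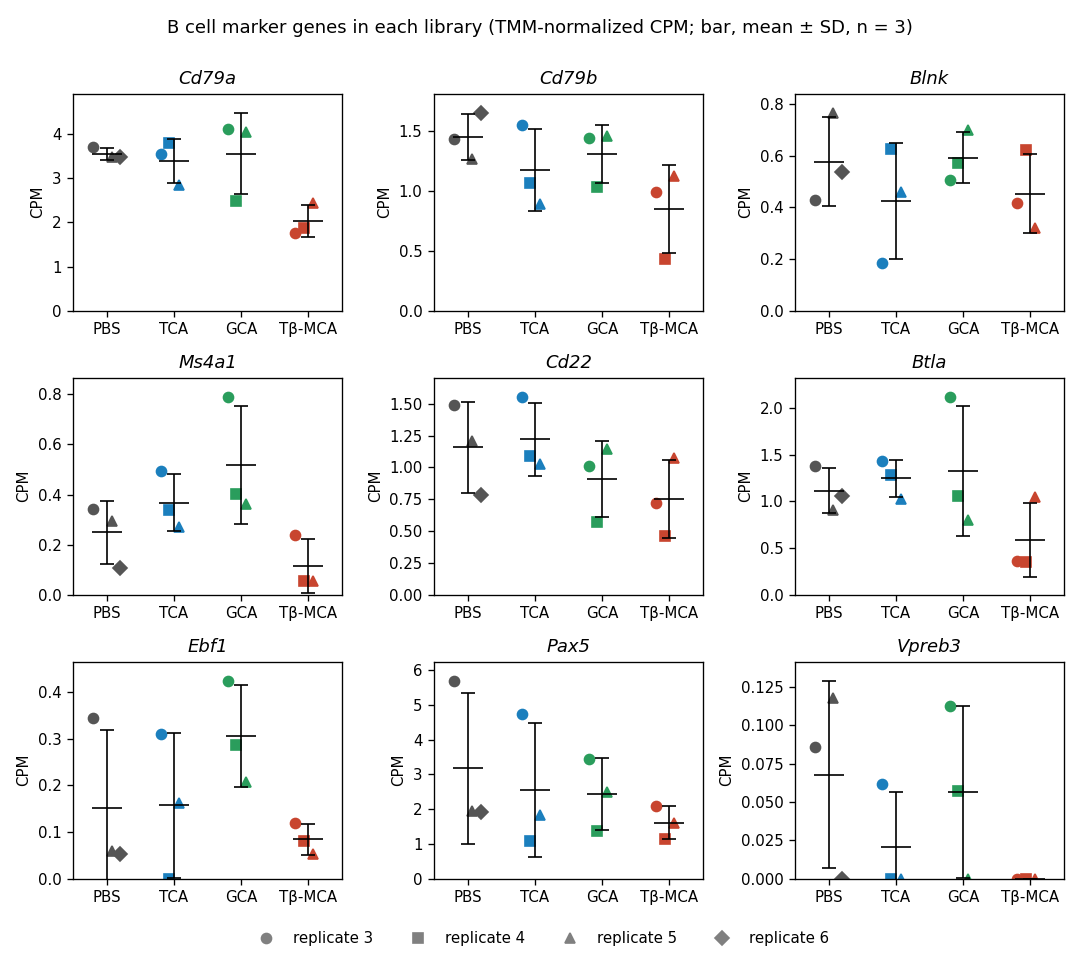
Level of each B cell marker gene in every library, in TMM-normalized CPM on a linear axis from 0, by group. Points are libraries with the shape giving the replicate number, and the bar with whiskers is the mean ± SD of 3 samples, with whiskers cut at 0. The Tβ-MCA libraries of Cd79a and Cd79b lie below all PBS libraries, and Vpreb3 is at 0 in all 3 Tβ-MCA libraries.

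Both signal chains of the receptor were lower in every Tβ-MCA library than in any PBS library. Cd79a, the CD79 alpha chain, was at 3.70, 3.47 and 3.48 CPM in PBS replicates 3, 5 and 6. In replicates 3, 4 and 5 of Tβ-MCA it was at 1.76, 1.86 and 2.43 CPM. The groups did not overlap, and the PBS libraries lay close to each other. The log2 fold change was −0.81 (SE 0.208, 95% interval −1.25 to −0.37), with an adjusted p of 0.0326 by edgeR. This call was lost when any library of the comparison other than Tβ-MCA replicate 5 was left out, with edgeR's adjusted p then between 0.0679 and 0.149 and a log2 fold change between −0.83 and −0.72. It was also lost with only the PBS and Tβ-MCA samples in the fit (adjusted p 0.0620).

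Cd79b, the beta chain of the same pair, was at 1.43, 1.26 and 1.64 CPM in PBS and at 0.987, 0.432 and 1.12 CPM in Tβ-MCA. The groups did not overlap here either, and Tβ-MCA replicate 4 held the lowest Cd79b level of all 12 libraries. The log2 fold change was −0.77 (SE 0.322), with an edgeR p of 0.0291 and an adjusted p of 0.146, which did not pass. It was −0.45 without Tβ-MCA replicate 4 and between −1.04 and −0.67 without each of the other libraries.

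Blnk encodes the adaptor that SYK phosphorylates downstream of the receptor. It was at 0.430, 0.765 and 0.539 CPM in PBS and at 0.419, 0.621 and 0.321 CPM in Tβ-MCA, and the groups overlapped. The log2 fold change of −0.34 (SE 0.424) had an adjusted p of 0.669 by edgeR. It was −0.10 without PBS replicate 5, −0.14 without Tβ-MCA replicate 5 and −0.64 without Tβ-MCA replicate 4.

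Ms4a1, which encodes the surface protein CD20, was at 0.344, 0.294 and 0.108 CPM in PBS and at 0.239, 0.0540 and 0.0535 CPM in Tβ-MCA. These are 12, 10 and 4 counts against 8, 2 and 2 counts, so 2 of the 3 Tβ-MCA libraries were under the floor of 3 counts. The groups overlapped, and the log2 fold change was −1.11 (SE 0.677, edgeR adjusted p 0.329). Without Tβ-MCA replicate 3 it was −2.13 (edgeR adjusted p 0.187), and without PBS replicate 3 it was −0.80 (edgeR adjusted p 0.595).

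Of the inhibitory receptors, Btla encodes an immunoglobulin superfamily protein that binds HVEM and is found on T cells as well. It was at 1.38, 0.912 and 1.05 CPM in PBS and at 0.359, 0.351 and 1.04 CPM in Tβ-MCA, so that replicates 3 and 4 of Tβ-MCA lay below every PBS library and replicate 5 lay among them. The log2 fold change was −0.92 (SE 0.433, edgeR adjusted p 0.205). Without Tβ-MCA replicate 5 it was −1.64 with an adjusted p of 0.0161. Cd22, a lectin that binds sialic acid and restrains receptor signalling, was at 1.49, 1.21 and 0.782 CPM in PBS and at 0.718, 0.459 and 1.07 CPM in Tβ-MCA. The groups overlapped through replicate 5 of Tβ-MCA and replicate 6 of PBS. The log2 fold change was −0.62 (SE 0.358, edgeR adjusted p 0.299). It was −0.40 without PBS replicate 3, −0.37 without Tβ-MCA replicate 4 and −0.98 without Tβ-MCA replicate 5.

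Pax5, the factor that commits cells to the B lineage, was at 5.68, 1.94 and 1.91 CPM in PBS and at 2.09, 1.13 and 1.61 CPM in Tβ-MCA. The mean of PBS was carried by replicate 3, and the groups overlapped. The log2 fold change was −0.98 (SE 0.623, edgeR adjusted p 0.368), and it was −0.26 without PBS replicate 3. With no filter on low counts, Pax5 passed at an adjusted p of 0.000553 with nearly the same log2 fold change, −0.98, and an SE of 0.229.

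Ebf1, which acts with Pax5 and before it, was at 0.344, 0.0588 and 0.0539 CPM in PBS, or 12, 2 and 2 counts. In Tβ-MCA it was at 0.120, 0.0810 and 0.0535 CPM, or 4, 3 and 2 counts. The groups overlapped, and the log2 fold change of −0.83 (SE 0.976, edgeR adjusted p 0.652) turned to 0.55 without PBS replicate 3, which alone set its direction. Vpreb3, a chain found with the precursor receptor in early B cells, had 3, 4 and 0 counts in PBS and 0 counts in each Tβ-MCA library, and no fold is given for it.

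**Figure D2:**
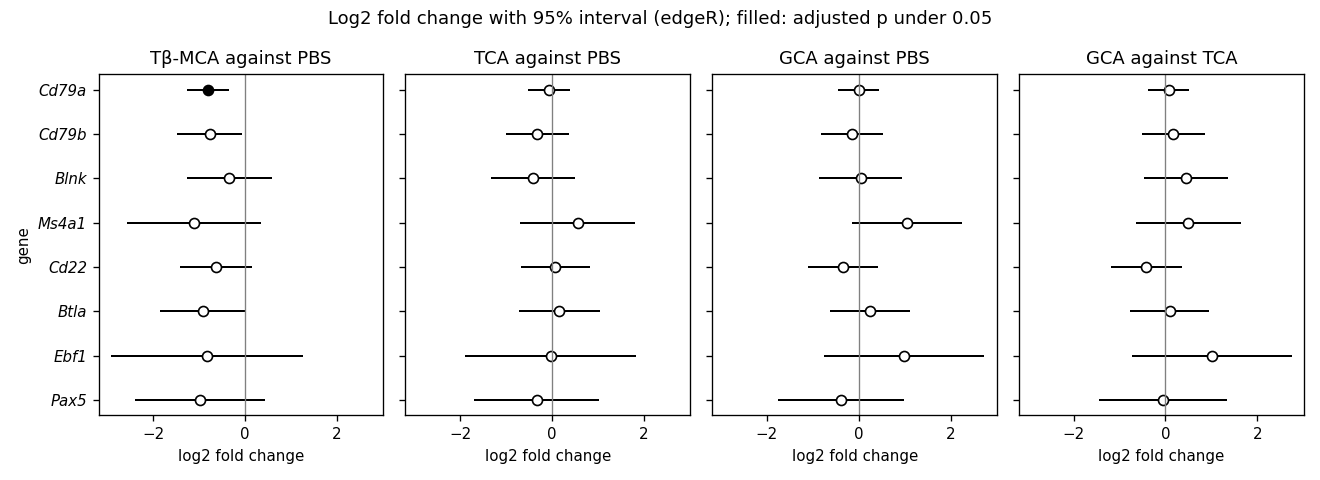
Log2 fold change of the 8 tested genes in 4 comparisons, from edgeR's fit over all 12 samples. Points are estimates, lines are 95% intervals and filled points passed an adjusted p of 0.05. Against PBS, all 8 estimates are below 0 with Tβ-MCA, whereas 5 of 8 are below 0 with TCA and 3 of 8 with GCA. Over all genes tested, 49.4%, 49.8% and 49.7% are below 0 in these comparisons. Cd79a with Tβ-MCA is the 1 filled point.

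In the comparison of TCA with PBS, none of the 8 tested genes passed the adjusted p of 0.05 in edgeR, as 0% of all genes did, and 0 of the 8 had an unadjusted p under 0.05, against 546 of all genes. At the unadjusted p with a 2-fold change, 0.465% of all genes and 0 of the 8 passed. The median log2 fold change of the 8 genes was −0.04. Cd79a was at 3.53, 3.79 and 2.84 CPM in TCA replicates 3, 4 and 5, which overlapped with PBS, with a log2 fold change of −0.07 and a 95% interval from −0.49 to 0.36. Cd79b was at 1.55, 1.06 and 0.893 CPM in TCA, with a log2 fold change of −0.32 and an interval from −0.98 to 0.35. The interval of Cd79b still allows a change of the size that was estimated for it with Tβ-MCA. For Ms4a1, Pax5 and Ebf1 the intervals reach further than a 2-fold change in both directions on the log2 scale except for the lower bound of Ms4a1 at −0.66.

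In the comparison of GCA with PBS, none of the 8 passed the adjusted p in edgeR, as 0% of all genes did, and 0 of the 8 were among the 591 genes with an unadjusted p under 0.05. At the unadjusted p with a 2-fold change, 0.531% of all genes and 0 of the 8 passed. The median log2 fold change of the 8 was 0.02. Ms4a1 was at 0.788, 0.401 and 0.363 CPM in GCA, or 28, 14 and 14 counts, and all 3 libraries lay above all 3 PBS libraries. This held for 1 of the 8 and for 4.71% of all genes, and the log2 fold change of Ms4a1 was 1.05 (SE 0.556, edgeR p 0.0771, adjusted p 0.999). Cd79a was at 4.11, 2.49 and 4.04 CPM in GCA, on both sides of the PBS libraries, with a log2 fold change of 0.0015 and a 95% interval from −0.42 to 0.43. Btla was at 2.11, 1.06 and 0.804 CPM in GCA, where replicate 3 held the highest Btla level of all 12 libraries.

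TCA and GCA are cholic acid conjugated with taurine and with glycine, and both were given at 200 μM for 24 h. This 1 pair was compared gene by gene. None of the 8 genes passed in edgeR with adjustment over all genes, as 0% of all genes did, with 412 of all genes and 0 of the 8 at an unadjusted p under 0.05. At the unadjusted p with a 2-fold change, 0 of the 8 and 0.442% of all genes passed. The log2 difference, GCA minus TCA, was 0.07 for Cd79a with a 95% interval from −0.36 to 0.49, and 0.17 for Cd79b with an interval from −0.50 to 0.84. For Cd22 it was −0.41, with an interval from −1.16 to 0.33, and for Ebf1 it was 1.01, with an interval from −0.71 to 2.73. In fits of only 2 groups, Ebf1 passed the filter on low counts only where GCA was included, the group of its highest counts. The higher Ebf1 value with GCA is therefore tied to how the gene entered the test. The smallest interval, that of Cd79a, leaves room for a difference of up to 0.49 on the log2 scale, and the p-values do not show that the conjugates act alike. With Tβ-MCA, whose dose differs between the sources, the mean Cd79a level was 2.02 ± 0.362 CPM, beside 3.39 ± 0.492 CPM with TCA and 3.55 ± 0.917 CPM with GCA (SD, n = 3 each).

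Some of the 9 genes also varied by replicate number. Pax5, Ebf1 and Ms4a1 were each highest in replicate 3 in all 4 groups, which held for 8.21% of the genes tested. Pax5 was at 5.68 CPM in PBS replicate 3 against a mean of 1.93 CPM in replicates 5 and 6. With TCA it was at 4.74 CPM in replicate 3 against a mean of 1.46 CPM in the other libraries, with GCA at 3.43 against 1.93 CPM, and with Tβ-MCA at 2.09 against 1.37 CPM. The gap between replicate 3 and the rest was thus larger in PBS and TCA than the difference between the PBS and Tβ-MCA means. Replicate 3 was highest in 3 groups for Btla, in 2 for Cd79a, Cd22 and Vpreb3 and in 1 for Cd79b. Blnk was lowest in replicate 3 with PBS, TCA and GCA, so the genes of the lineage did not share 1 order across replicates. What the replicate number stands for is not given in the sources used here. With the 4 libraries of replicate 3 left out together, the log2 fold change in Tβ-MCA was −0.69 for Cd79a (edgeR adjusted p 0.212), −0.90 for Cd79b and −0.49 for Pax5, and none of the genes passed. That removal was chosen after the values were seen.

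**Figure D3:**
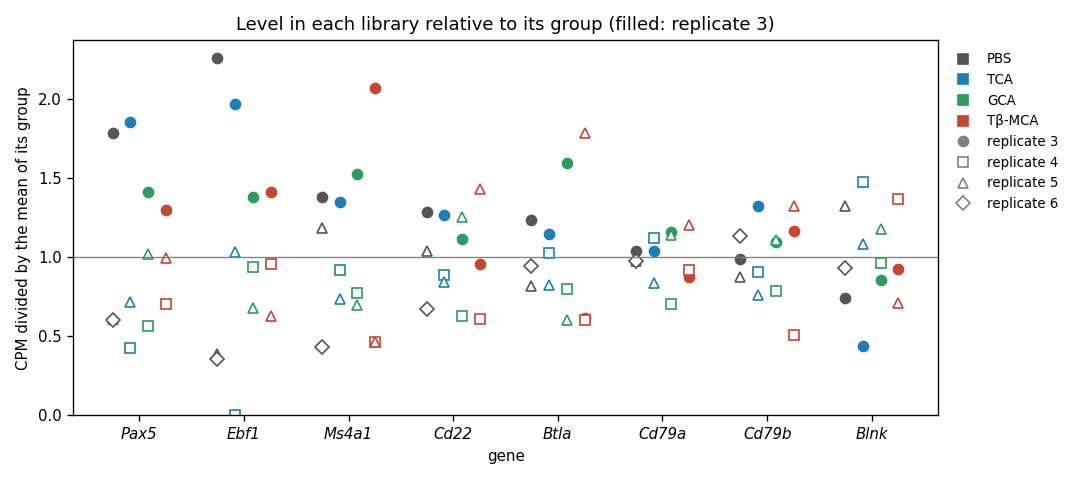
CPM in each library divided by the mean CPM of its group, for 8 B cell marker genes. Colours are groups, shapes are replicate numbers, filled points are replicate 3 and the line at 1 is the group mean. Replicate 3 is the highest point for Pax5, Ebf1 and Ms4a1 in all 4 groups, and for Blnk it is the lowest with PBS, TCA and GCA.

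The counts of further B lineage genes called in Tβ-MCA stand beside 4.44% of all genes called higher and 3.18% called lower, so that 1 gene of a short list is near the background. A count of genes with a log2 fold change below 0 stands beside 49.4% of all genes. Among the genes of early B cells, 2 of 9 tested genes rose and 0 fell. Il7r, the receptor for interleukin 7, was at 12.5 ± 3.08 CPM against 7.20 ± 1.52 CPM in PBS (log2 fold change 0.80, edgeR adjusted p 0.0428). Bcl11a, a transcription factor of lymphoid progenitors, rose by 0.57 (adjusted p 0.0368). Both are also expressed in other cell types. Vpreb1, a surrogate light chain gene and a defining marker of precursor B cells, was at 4.88 ± 0.235 CPM against 4.75 ± 1.05 CPM, and it shares 108 exon bases with Top3b on the other strand. Top3b had between 1405 and 1939 counts per library against between 122 and 207 counts for Vpreb1, so Vpreb1 is uncertain. The other surrogate light chain gene, Igll1, was at 0 in 10 of 12 libraries, and the recombinase gene Rag2 in 10 of 12 as well.

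Of the genes of mature B cells, 1 of 15 rose and 0 fell, namely the costimulatory receptor Cd40, at 1.97 ± 0.330 CPM against 1.07 ± 0.0602 CPM (log2 fold change 0.89, edgeR adjusted p 0.0379). Of the genes of plasma cells, 0 of 7 rose and 2 fell. These were Xbp1, a factor of the secretory programme in many cell types, by 0.49 on the log2 scale (adjusted p 0.0208), and Txndc5, a protein disulfide isomerase, which fell by 0.80 (adjusted p 0.0347).

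Of the immunoglobulin constant genes, 11 of 11 had a log2 fold change below 0 and 2 of them fell. Igkc, the constant part of the kappa light chain, was at 8.14, 9.79 and 10.7 CPM in PBS and at 2.33, 2.89 and 5.59 CPM in Tβ-MCA, without overlap (log2 fold change −1.40, edgeR adjusted p 0.0320). Iglc1, a constant part of the lambda light chain, had 16, 24 and 21 counts in PBS and 2, 0 and 3 counts in Tβ-MCA (adjusted p 0.0208). With TCA, Igkc was at 6.26, 7.08 and 6.52 CPM, below every PBS library. With GCA it was at 4.65, 4.95 and 9.70 CPM, which overlapped with PBS through replicate 5, and neither bile acid passed the test. Ighm, the heavy chain of IgM and the most abundant of the list, was at 35.1 ± 1.36 CPM in Tβ-MCA against 38.4 ± 5.46 CPM in PBS and did not pass (adjusted p 0.630).

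Among the genes of B cell receptor signalling, 2 of 18 rose and 0 fell. Malt1, a protease that acts in NF-κB activation, was at 61.5 ± 3.67 CPM against 48.2 ± 4.12 CPM in PBS (log2 fold change 0.35, edgeR adjusted p 0.0320). The list summed to between 4640 and 4941 CPM in the 12 libraries, which is far above the receptor chains, and myeloid cells use many of its genes. Of the partners of the inhibitory receptors, 0 of 7 rose and 2 fell, the phosphatases Ptpn6 by 0.29 and Ptpn11 by 0.33 on the log2 scale (adjusted p 0.0271 and 0.0338). Of 12 transcription factors of the B lineage, 1 fell and 0 rose, Pou2f2 by 0.57 (adjusted p 0.0341). Its protein binds the octamer printed above for Blnk and Vpreb3, and a link between Pou2f2 and the levels of these genes was not tested. None of the genes of these lists passed in the comparisons of TCA or GCA with PBS or of GCA with TCA.

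The summed levels of several marker lists of other cell types were also lower with Tβ-MCA, although few of their genes passed the test. Of all genes tested, 49.4% were lower on average with Tβ-MCA. The 10 monocyte and macrophage markers summed to between 1209 and 1238 CPM in PBS and between 339 and 946 CPM in Tβ-MCA, with 10 of 10 lower on average and 1, Ly6c2, past the test. The progenitor markers summed to between 266 and 279 CPM in PBS and between 63.0 and 216 CPM in Tβ-MCA, with 7 of 7 lower on average and 0 past the test. Most of that sum was Mpo, at 203 ± 7.85 CPM in PBS and 77.0 ± 67.2 CPM in Tβ-MCA. Mpo, Elane, Prtn3 and Cd34 had log2 fold changes between −1.43 and −0.78, and Kit, Meis1 and Sox4 between −0.23 and −0.03. For the eosinophil markers the sums were between 155 and 273 CPM in PBS and between 60.2 and 139 CPM in Tβ-MCA, with 7 of 7 lower on average and 1, Siglecf, past the test. These shifts in Tβ-MCA were weakest in replicate 5, which also held the highest Cd79a, Cd79b, Btla and Cd22 levels of its group. The other tested members differed, with Ms4a1, Pax5 and Ebf1 highest in Tβ-MCA replicate 3 and Blnk highest in replicate 4.

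The conventional dendritic cell markers summed to between 63.0 and 69.3 CPM in PBS and between 35.3 and 57.5 CPM in Tβ-MCA, with Batf3 and Cd74 past the test among 8. The T cell markers summed to between 3.61 and 5.47 CPM in PBS and between 2.27 and 3.13 CPM in Tβ-MCA, with 5 of 7 lower on average, and the NK cell markers to between 1.21 and 1.62 CPM and between 0.270 and 0.963 CPM, with 2 of 2 lower on average. None of the T cell and NK cell markers passed. The plasmacytoid dendritic cell markers overlapped, at between 46.1 and 47.4 CPM in PBS and between 46.4 and 49.3 CPM in Tβ-MCA. Most of that sum was Runx2, at 26.5 ± 3.52 CPM in PBS and 30.8 ± 3.12 CPM in Tβ-MCA. Tcf4 was at 8.30 ± 1.76 and 5.56 ± 1.38 CPM, and 3 of the 6 tested genes were lower on average with 0 past the test. The basophil and mast cell markers, at between 36.3 and 70.0 CPM in PBS and between 32.6 and 61.7 CPM in Tβ-MCA, overlapped too, as did the erythroid markers at between 1.52 and 2.51 CPM and between 1.61 and 2.29 CPM. The 12 neutrophil markers summed to between 49676 and 61318 CPM in PBS and between 39861 and 45269 CPM in Tβ-MCA, with 5 past the test and lower, Ly6g by 0.99 and Camp by 1.14 on the log2 scale among them. The part of these shifts in the levels of the B cell marker genes was not tested. No list had all of its genes at 0.

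**Figure D4:**
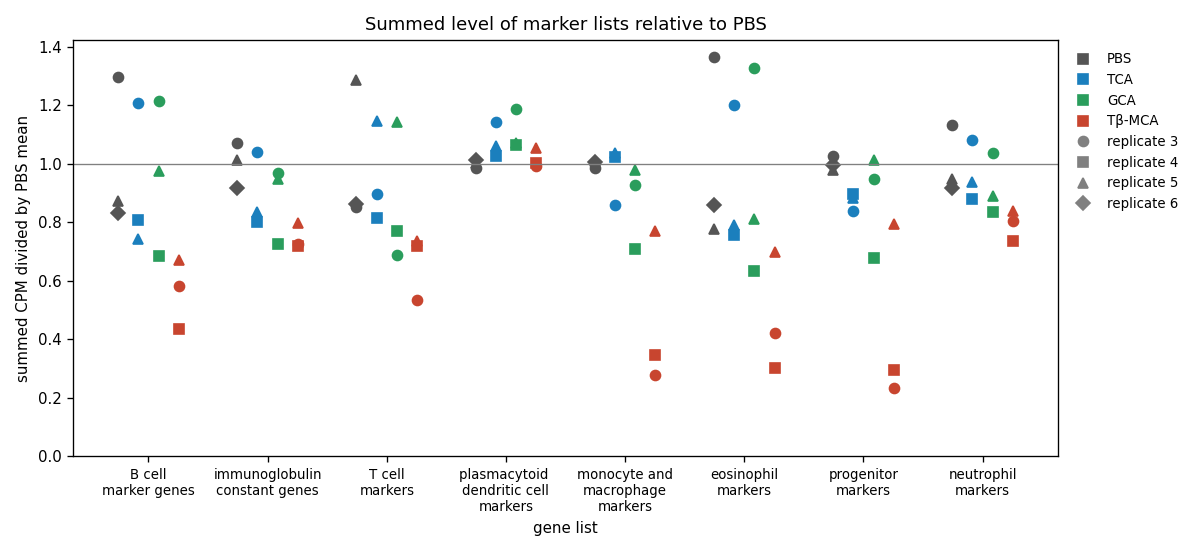
Summed CPM of each marker list in every library, divided by the mean of the 3 PBS libraries, on a linear axis from 0. Colours are groups, shapes are replicate numbers and the line at 1 is the PBS mean. The Tβ-MCA libraries lie between 0.434 and 0.670 for the B cell marker genes, between 0.276 and 0.771 for the monocyte and macrophage markers and near 1 for the plasmacytoid dendritic cell markers.

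Over the 12 libraries, the genes whose log2 CPM ran most like the mean standardized profile of the 8 tested genes were Zfp384 (Pearson r 0.977, Spearman rho 0.965), Arhgap4 (0.965 and 0.972), Tln1 (0.962 and 0.979) and Ilk (0.960 and 0.937). Pmvk, Gm16548 and Slc35e1 followed with r between 0.949 and 0.958. The 12 libraries share the contrast of Tβ-MCA with the rest, and all of these genes had a log2 fold change below 0 in Tβ-MCA, between −1.07 and −0.13, so these values are a description of likeness in these libraries. None of them is a gene of the lists above.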

How the data were processed

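Libraries from 12 neutrophil samples were made with a stranded mRNA kit. According to the submitters' processing notes, the authors trimmed reads with Trimmomatic 0.36, aligned them with STAR 2.5.3a to GRCm38 (mm10) and counted them per gene with featureCounts of Subread 1.5.1. The authors deposited these raw counts, and beside them RPKM values, which are counts scaled by exon length and by library size. Columns named GA were taken as GCA, as the design text of the series spells out.

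The counts were compared with edgeR 4.0.16 in R 4.3.3 (TMM, filterByExpr by group, robust quasi-likelihood test, Benjamini-Hochberg adjustment over 16761 genes), and all 12 samples shared the spread. Log2 CPM values used a prior count of 2. DESeq2 1.42.0 and limma 3.58.1, the latter on log2(RPKM + 1) of genes whose mean RPKM reached 0.5, were alternatives, beside other scalings, filters, a replicate block and the omission of libraries. The code was tested on simulated data. Plots used matplotlib 3.10.9 in Python 3.11.15. Gene overlaps came from the exon coordinates deposited with the counts, and gene types came from GENCODE vM21.

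Nothing in the labels says that the samples of a group came from separate mice, so p-values measure the spread between these samples, which may be technical. The members and lists were chosen with earlier results of these data known. Besides the 9 genes, the genes named are list genes with an adjusted p under 0.05, at most 4 per list and comparison with the lowest p first, and the 8 genes most like the 9. Vpreb1, Igll1, Rag2, Ighm and the overlapping genes were named after their values were seen. Some genes that these rules name are not reported here.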

Additional observations from a re-analysis of the deposited data

How the results depend on the processing

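With Tβ-MCA against PBS, the direction of 7 of the 8 tested genes was the same under all alternatives that gave a value. That of Ebf1 was not, with a log2 fold change between −1.24 and 0.55 as single libraries were left out. The number of the 8 genes called was 1, 0 with the replicate block and 0 with the 4 libraries numbered 3 left out together. It was between 0 and 2 as single libraries were left out. With no filter, 9 of the marker genes were tested and 2 called. With only the 2 groups compared, 6 were tested and 0 called. The number of all genes called was 1278, and 2406 with no filter, 2035 by DESeq2, 689 by limma on log2(RPKM + 0.1), 0 with only the 2 groups compared (3485 at an unadjusted p under 0.05), 1 without the libraries numbered 3, and between 0 and 3076 as single libraries were left out. It was 0 without PBS replicate 3, PBS replicate 5, Tβ-MCA replicate 3 or Tβ-MCA replicate 4, 168 without PBS replicate 6 and 3076 without Tβ-MCA replicate 5. With no filter, 37 genes were called with TCA, 36 with GCA and 42 in GCA against TCA, DESeq2 called 1 with TCA, and 4 were called in GCA against TCA without the libraries numbered 3. The causes were not tested.

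Samples of different groups with the same replicate number deviated from their group means with correlations between 0.0597 and 0.326 over 15 pairs, and 10 of 12 samples correlated best with their own number. PBS replicate 6 could not, since no other group has that number. The mean over the 39 other pairs was −0.0716, but some of these were positive, such as PBS replicate 6 with TCA replicate 4 at 0.154. Since the labels do not say what the number marks, the replicate block was an alternative. Under the block the log2 fold change of Cd79a in Tβ-MCA was −0.76 (edgeR adjusted p 0.0541), 3 genes were called with TCA, and the log2 fold changes of Cd79b with GCA (0.13), Blnk with GCA (−0.16) and Pax5 in GCA against TCA (0.053) turned.

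Further uncalled values near 0 changed sign. Ebf1 with TCA was 0.0045 with no filter and 0.023 by DESeq2, and Cd79a with GCA was −0.0084 and −0.020 by limma with pseudocounts of 1 and 0.1. Without the libraries numbered 3, the values with GCA were −0.081 for Cd79a, 0.012 for Pax5, −0.025 for Blnk and −0.079 for Btla, and those of GCA against TCA were −0.017 for Cd79a, 0.42 for Pax5 and −0.31 for Btla. As single libraries were left out, the values with TCA ran from −0.16 to 0.047 for Cd79a, −1.12 to 0.38 for Pax5, −0.93 to 1.36 for Ebf1 and −0.15 to 0.29 for Cd22. With GCA they ran from −0.11 to 0.20 for Cd79a, −0.71 to 0.34 for Pax5, −0.13 to 0.29 for Blnk and −0.26 to 0.51 for Btla. In GCA against TCA they ran from −0.050 to 0.27 for Cd79a, −0.42 to 0.74 for Pax5 and −0.42 to 0.35 for Btla. The limma filter left Cd79a and Cd79b, and a minimum of 10 counts in every sample left fewer of the 8 genes, so the others have no value there. Ms4a1 and Ebf1 have no value in the fit of only PBS and Tβ-MCA, nor has Ebf1 in that of only PBS and TCA. Counts of a few reads per library limit Ebf1, Ms4a1 and Vpreb3.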
